A study of Drosophila melanogaster with 6 samples.

Results

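Subunit genes of the mitochondrial respiratory chain and of ATP synthase were compared between insv mutant and wild-type Drosophila embryos. The genes were taken by symbol: every probe set with 1 current gene symbol that begins with ND- (complex I), UQCR- (complex III), COX and a digit (complex IV) or ATPsyn (ATP synthase), with the probe set of the highest mean over the arrays standing for a gene. In the annotation 83 genes carry such a symbol and 66 of them had a probe set of their own, out of 11982 genes measured that way in the series. Of the 66, 48 are subunit genes and 18 are paralogues whose symbol ends in L, a mark for testis-type copies, which were kept apart. The 48 comprise 27 genes of complex I, 4 of complex III, 7 of complex IV and 10 of ATP synthase. The other 17 genes are not counted, among them the mitochondrially encoded COX1, COX2 and COX3. For 3 of the 17 (COX6B, ATPsynG and ND-AGGG) only a probe set shared with another gene was present, and it is given among the closing observations.

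The series holds 6 one-colour arrays (Affymetrix Drosophila Genome 2.0) of total RNA from whole embryos aged 6 to 8 h at 25 °C. Of these, 3 arrays are from embryos of the genotype insv[23B], in which Insensitive (insv), a gene for a nuclear BEN-domain repressor, is mutated, and 3 are from wild type, given as w[1118]. Parent genotypes, further alleles on the mutant chromosome, the number of embryos and the sex of the embryos are not given in the sources used here. Values are the authors' log2 levels made with GCRMA, which cannot go below a floor of 2.2, and each is given below as deposited, mutant replicates 1, 2 and 3 first and wild-type replicates 1, 2 and 3 after them.

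The respiratory chain of the inner mitochondrial membrane carries electrons from NADH and succinate to oxygen and pumps protons outward on the way. Complex I accepts electrons from NADH, complex II from succinate, complex III passes them to cytochrome c and complex IV to oxygen, and ATP synthase lets the protons flow back to make ATP. Most subunits are encoded in the nucleus, and their genes are expressed in every tissue, with high demand in muscle. In the fly many of them have a duplicated copy used in the testis.

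Arrays of the same genotype were close to each other and far from the other genotype: over the 8334 tested probe sets (those that reached a level of 4 on 3 or more arrays) correlations were 0.996 to 0.998 within and 0.905 to 0.906 between genotypes, a description across probe sets that share the arrays. The mutated gene read 4.0, 3.6 and 4.2 on the mutant arrays and 10.9 on each wild-type array. Of the markers of embryos of this age 5 were measured and all 5 were tested, with en (engrailed) at 11.0 on all arrays and 4 lower in the mutant. All 6 measured contractile muscle genes were higher in the mutant, with a median difference of 3.37 and a mean level of 6.67 on each wild-type array and 9.97 to 10.05 on the mutant arrays, and so were all 7 tested genes of late epidermis, with a median of 2.73, while ple of that list stayed at 2.2 on all arrays. Mutant minus wild type was tested with limma over all tested probe sets, with Benjamini-Hochberg adjustment and a threshold of 0.05, and "rose" and "fell" are used only past it. By that rule 24.7% of all tested probe sets were higher and 40.8% lower in the mutant, so a change is common in this comparison. Control probe sets for Bacillus spike-in transcripts were lower by 1.39 on the mutant arrays, and on a scale set by them every difference is 1.39 higher. All directions below are on the deposited scale, and every fall named below is a positive difference on the spike-in scale.

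As a whole the subunit genes differed little between the genotypes. Of the 48, 46 were tested, and their differences (mutant minus wild type, log2) had a median of 0.03 and quartiles of -0.06 and 0.13. Over all tested probe sets the median was -0.10 and the quartiles were -0.37 and 0.20. A difference of less than 0.3 in either direction was found for 38 of the 46 (82.6%), and for 45.8% of all tested probe sets. The members read higher than most probe sets, with array medians of 11.05 to 11.35 against 8.5 to 8.6 for all tested probe sets. The part of level in the small differences was not tested. By the adjusted p, 8 members rose (17.4%), 6 fell (13.0%) and 32 did not pass. All 3 mutant values lay above all 3 wild-type values for 9 members, where the share over all tested probe sets was 24.9%, and below them for 5, where that share was 40.7%. Only 1 member passed with a change of at least 2-fold, against 16.2% of all tested probe sets in either direction. By complex, 3 rose and 3 fell in complex I, 1 fell in complex III, 1 rose and 2 fell in complex IV, and 4 rose in ATP synthase. In complex III 0.0% rose and 25.0% fell, and in complex IV 14.3% rose and 28.6% fell. Over all tested probe sets these shares were 24.7% and 40.8%. In bulk RNA, a change in the number of cells of a type and a change in RNA per cell cannot be told apart. That holds for each of these differences, rises and falls alike. Both genotypes carry the same age label of 6 to 8 h, and whether the embryos differed in developmental stage within it was not tested.

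**Figure D1:**
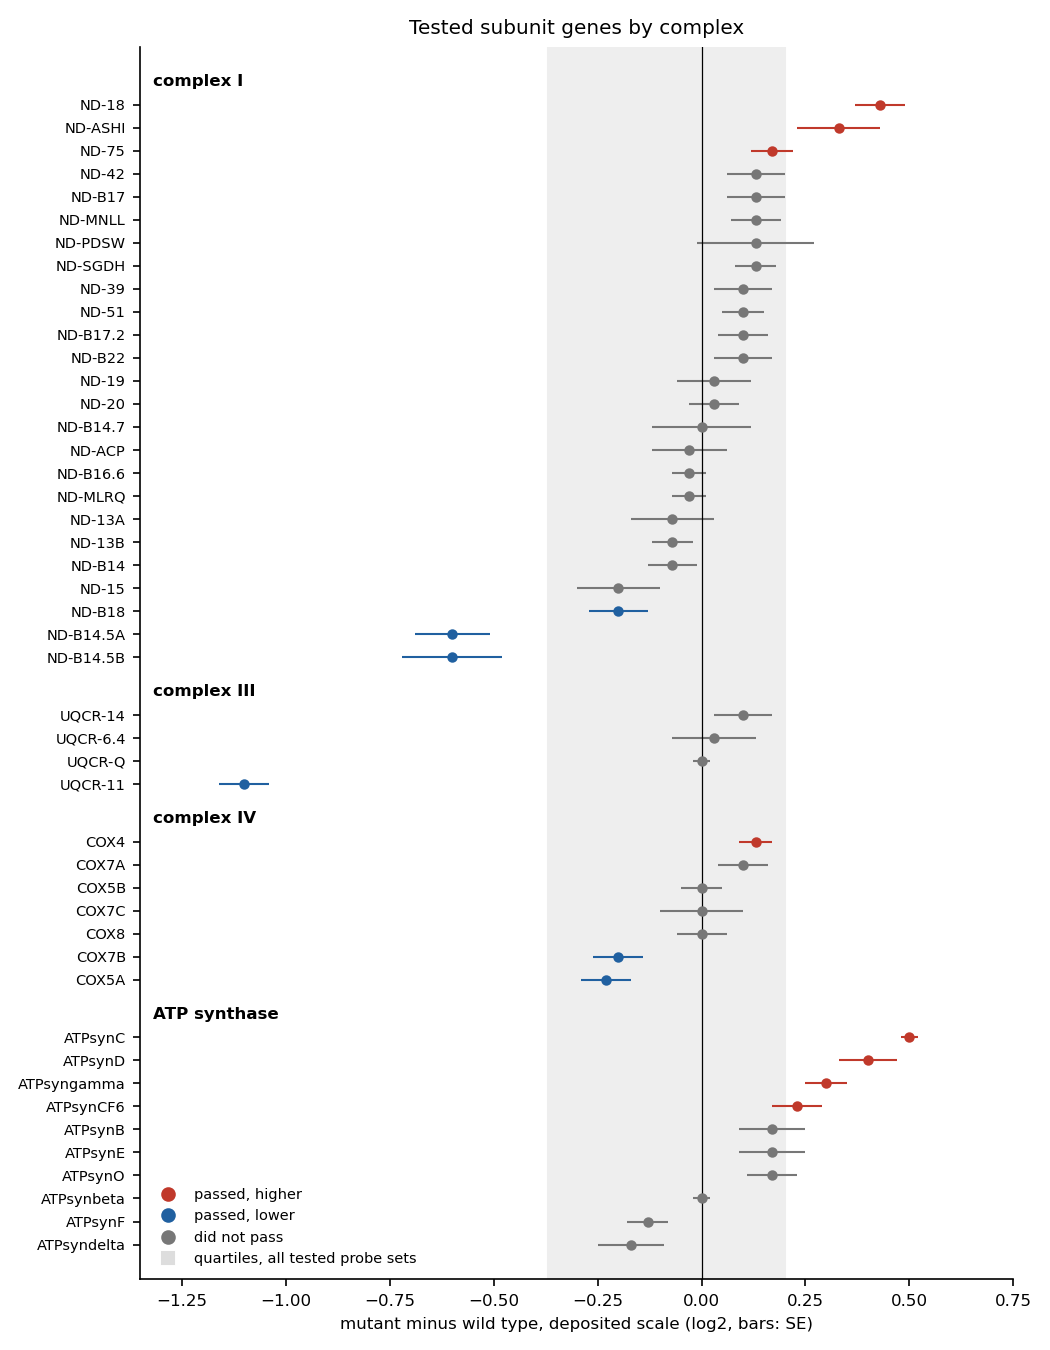
Mutant minus wild-type difference of the 46 tested subunit genes by complex (log2, deposited scale; points are differences of means of 3 arrays, bars are standard errors, shading spans the quartiles of all tested probe sets, -0.37 to 0.20). Most genes lie close to 0, UQCR-11 stands at -1.10, and ATPsynC at 0.50 is the highest; on the spike-in scale every point moves by 1.39 to the right.

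Complex I, the entry point for NADH, gave 25 tested genes with a median difference of 0.03. Among them 3 rose (12.0%), 3 fell (12.0%) and 19 did not pass, where 24.7% of all tested probe sets were higher and 40.8% lower. The largest changes were falls of a pair of accessory subunits, ND-B14.5A and ND-B14.5B, whose mammalian counterparts are NDUFA7 and NDUFC2. ND-B14.5A read 9.6, 9.5 and 9.5 in the mutant and 10.1, 10.3 and 10.0 in wild type. ND-B14.5B read 10.7, 10.6 and 10.5 in the mutant and 11.2, 11.4 and 11.0 in wild type. In both genes every mutant array lay below every wild-type array. Each fell by 0.60 on the log2 scale, a 1.52-fold lower level, with a standard error of 0.09 (limma adjusted p = 0.00238) for ND-B14.5A and 0.12 (adjusted p = 0.00702) for ND-B14.5B.

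The genes of complex I that rose include a core subunit and accessory ones. ND-18, the counterpart of NDUFS4, an accessory subunit by the NADH-binding arm, read 10.1, 10.0 and 10.0 in the mutant and 9.6, 9.7 and 9.5 in wild type, a difference of 0.43 ± 0.06 (SE; limma adjusted p = 0.00242). ND-ASHI, a membrane-arm accessory subunit (NDUFB8), read 11.0, 10.9 and 10.8 against 10.6, 10.7 and 10.4. The groups did not overlap, and the difference was 0.33 ± 0.10 (adjusted p = 0.0262). ND-75, the largest core subunit of the arm, which holds iron-sulfur clusters, read 9.4, 9.3 and 9.3 against 9.2, 9.2 and 9.1. Its difference of 0.17 ± 0.05 (adjusted p = 0.0248) was small, and lost the call without mutant replicate 1 (adjusted p = 0.0556) and without a filter on low values (adjusted p = 0.0674). ND-ASHI lost it when wild-type replicate 1 or either of mutant replicates 1 and 2 was left out, with an adjusted p of up to 0.0913 over all alternatives.

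The remaining genes of complex I lay near equality. ND-B18, an accessory subunit (NDUFB7), read 10.4, 10.3 and 10.3 against 10.6, 10.6 and 10.4, so that mutant replicate 1 and wild-type replicate 3 share a value. It passed only just (-0.20 ± 0.07, adjusted p = 0.0496) and did not pass under 9 of 16 alternatives, 5 of which each leave out 1 array (mutant 1, 2 or 3, or wild type 1 or 2). ND-15, another accessory subunit (NDUFS5), had the same difference of -0.20 without passing (adjusted p = 0.130), with 11.5, 11.3 and 11.3 against 11.6, 11.7 and 11.4. The flavin-binding subunit ND-51 (NDUFV1) read 11.1, 11.0 and 11.0 against 10.9, 11.0 and 10.9 (difference 0.10, adjusted p = 0.112). ND-20 (NDUFS7), an iron-sulfur subunit by the site where ubiquinone is reduced, differed by 0.03 (adjusted p = 0.654). With ND-75 these are the 3 measured of the 7 core subunits of the matrix arm, the part that takes electrons from NADH to ubiquinone. Of the 3, 1 rose (33.3%), where 24.7% of all tested probe sets were higher.

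ND-MLRQ and ND-SGDH had the highest mean levels read by the probe sets of complex I. ND-MLRQ, whose mammalian counterpart is now counted with complex IV, read 14.0 on each mutant array and 14.0, 14.1 and 14.0 in wild type. ND-SGDH (NDUFB5), a membrane-arm subunit, read 11.9, 12.0 and 12.0 against 11.8, 11.9 and 11.8, a difference of 0.13 that just missed the threshold (adjusted p = 0.0514). The mitochondrial acyl carrier protein ND-ACP differed by -0.03 on its highest probe set, and ND-B16.6, the counterpart of GRIM-19, by -0.03. The others that did not pass lay between -0.07 for ND-13A (NDUFS6), ND-13B (NDUFA5) and ND-B14 (NDUFA6) and 0.13 for ND-42 (NDUFA10), ND-B17 (NDUFB6), ND-MNLL (NDUFB1) and ND-PDSW (NDUFB10). ND-B8 was at the floor of 2.2 on all 6 arrays and ND-B12 on 5 of them, with 2.3 on wild-type replicate 2, so neither was tested. A reading at the floor says that the probe set gave no signal above background, not that the transcript is absent.

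Complex III, which passes electrons from ubiquinol to cytochrome c, held the largest change among the members. UQCR-11, a small accessory subunit, read 5.3, 5.5 and 5.4 in the mutant and 6.5 on each wild-type array. It fell by 1.10 ± 0.06 (SE; limma adjusted p = 4.87e-05), a 2.14-fold lower level, and it kept the fall under each alternative except the spike-in scale, where it had a difference of 0.29 (adjusted p = 0.392). The other 3 measured subunits did not pass. UQCR-Q read 10.4 on all 6 arrays. UQCR-14 read 13.1, 13.0 and 13.0 against 13.0, 13.0 and 12.8 (difference 0.10, adjusted p = 0.251), and UQCR-6.4 read 12.7, 12.6 and 12.5 against 12.6, 12.7 and 12.4 (difference 0.03, adjusted p = 0.772). No other probe set of UQCR-11 was measured, so its fall rests on 1 probe set, which read well below those of the other 3 subunits.

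Further subunits of complex III bear other symbols and are not counted among the members. Of these, Cyt-c1, the cytochrome c1 gene, read 12.5 on each mutant array and 12.2, 12.2 and 12.1 in wild type, a rise of 0.33 (limma adjusted p = 0.000882). The small subunit gene ox read 11.4, 11.4 and 11.3 against 10.8, 11.0 and 10.7, a rise of 0.53 (adjusted p = 0.0036). Both rose with no overlap between the genotypes, opposite in direction to UQCR-11 on the deposited scale. RFeSP, the Rieske iron-sulfur protein, had a difference of 0.00.

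Complex IV, the cytochrome c oxidase that reduces oxygen, had 7 tested genes, all with a difference of at most 0.3 in size and with a median of 0.00. COX5A, a nuclear-encoded subunit whose fly mutants (tenured) are known for a cell cycle arrest in the eye disc, read 12.8, 12.8 and 12.7 in the mutant and 13.0, 13.1 and 12.9 in wild type. COX7B read 12.8 on each mutant array and 13.0, 13.1 and 12.9 in wild type. These subunit genes fell, by 0.23 ± 0.06 (limma adjusted p = 0.0218) and by 0.20 ± 0.06 (adjusted p = 0.0236). COX4, a regulatory subunit in mammals, read 12.8 on each mutant array and 12.7, 12.7 and 12.6 in wild type, a rise of 0.13 ± 0.04 (adjusted p = 0.0231). The groups did not overlap in any of the 3, and all 3 changes are about as large as the range of the wild-type arrays. Each lost its call whenever 1 mutant array was left out, and COX5A and COX7B also without wild-type replicate 1. A second probe set of COX7B, at 12.4, 12.4 and 12.3 against 12.6, 12.6 and 12.3, did not pass (adjusted p = 0.262).

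COX7A read 12.4, 12.3 and 12.2 in the mutant and 12.2 on each wild-type array, a difference of 0.10 that did not pass (adjusted p = 0.162). COX8, whose probe set had the highest mean in the complex, read 13.2 on each mutant array and 13.2, 13.3 and 13.1 in wild type. COX8, COX5B and COX7C each had a difference of 0.00. The genes levy and cype, fly names for subunits 6A and 6C, had differences of -0.03 and 0.07 and did not pass.

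ATP synthase, the rotary enzyme that makes ATP, was the complex with the most rises: 4 of 10 tested genes rose (40.0%), 0 fell and 6 did not pass, with a median difference of 0.17. Over all tested probe sets 24.7% were higher and 40.8% lower. No test of the complex as a group was made, and the count is a description. ATPsynC, the subunit of the ring that turns in the membrane, read 13.0 on each mutant array and 12.5 on each wild-type array. It rose by 0.50 ± 0.02 (SE; limma adjusted p = 2.81e-05), a 1.41-fold higher level, with no spread in either genotype at the deposited precision of 1 decimal. ATPsyngamma, the shaft that the ring drives, read 12.1, 12.2 and 12.2 against 11.8, 11.9 and 11.9, a rise of 0.30 ± 0.05 (adjusted p = 0.0032). A second probe set of ATPsyngamma read 11.0, 10.9 and 10.9 against 10.5, 10.6 and 10.4, a difference of 0.43 (adjusted p = 0.00242), so both probe sets of the gene were higher in all mutant arrays.

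The peripheral stalk, which holds the catalytic head still against the turning ring, had 4 tested genes with differences from 0.17 to 0.40. Of these, 2 rose (50.0%), where 24.7% of all tested probe sets were higher. ATPsynD read 11.8, 11.7 and 11.7 against 11.4, 11.4 and 11.2 (0.40 ± 0.07, limma adjusted p = 0.00464). ATPsynCF6 read 12.0, 11.9 and 11.9 against 11.7, 11.8 and 11.6 (0.23 ± 0.06, adjusted p = 0.0218), and lost the call when any mutant array, or wild-type replicate 1, was left out. ATPsynO, the subunit that links stalk and head, read 12.4 on each mutant array and 12.3, 12.3 and 12.1 in wild type. Its groups did not overlap, but the difference of 0.17 missed the threshold (adjusted p = 0.0619). ATPsynB had the same difference with overlapping groups (adjusted p = 0.121).

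The catalytic head gave readings that differ between its subunits and between probe sets. The catalytic subunit ATPsynbeta read 12.2 on all 6 arrays with the probe set that stands for it. Its second probe set read 12.2, 12.1 and 12.0 in the mutant and 11.5, 11.7 and 11.7 in wild type, a difference of 0.47 (limma adjusted p = 0.00464), so the probe sets of ATPsynbeta disagree. The alpha subunit, which alternates with beta around the shaft, is known in the fly as blw (bellwether) and so is not a member. Its probe set read 12.8 on each mutant array and 12.2, 12.1 and 12.2 in wild type, a rise of 0.63 ± 0.04 (adjusted p = 8.08e-05). The epsilon subunit gene sun (stunted) fell: it read 4.8 on each mutant array and 5.4, 5.2 and 5.3 in wild type (-0.50, adjusted p = 0.000894). ATPsyndelta, of the central stalk, read 11.9 on each mutant array and 12.1, 12.2 and 11.9 in wild type, which overlap (-0.17, adjusted p = 0.121). In all, 2 of the 5 genes of the head and its stalk rose (40.0%) and 1 fell (20.0%). The shares over all tested probe sets were 24.7% and 40.8%.

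Among the small membrane subunits, ATPsynF read 12.8, 12.7 and 12.7 against 12.9, 12.9 and 12.8, a difference of -0.13 that missed the threshold (limma adjusted p = 0.0514). ATPsynE read 12.3, 12.1 and 12.1 against 12.0, 12.1 and 11.9 (difference 0.17, adjusted p = 0.121). Among the members the rises were in the ring, the shaft and the peripheral stalk, with blw of the head rising outside them, and the median over the 10 members stayed between 0.11 and 0.21 as each array was left out.

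**Figure D2:**
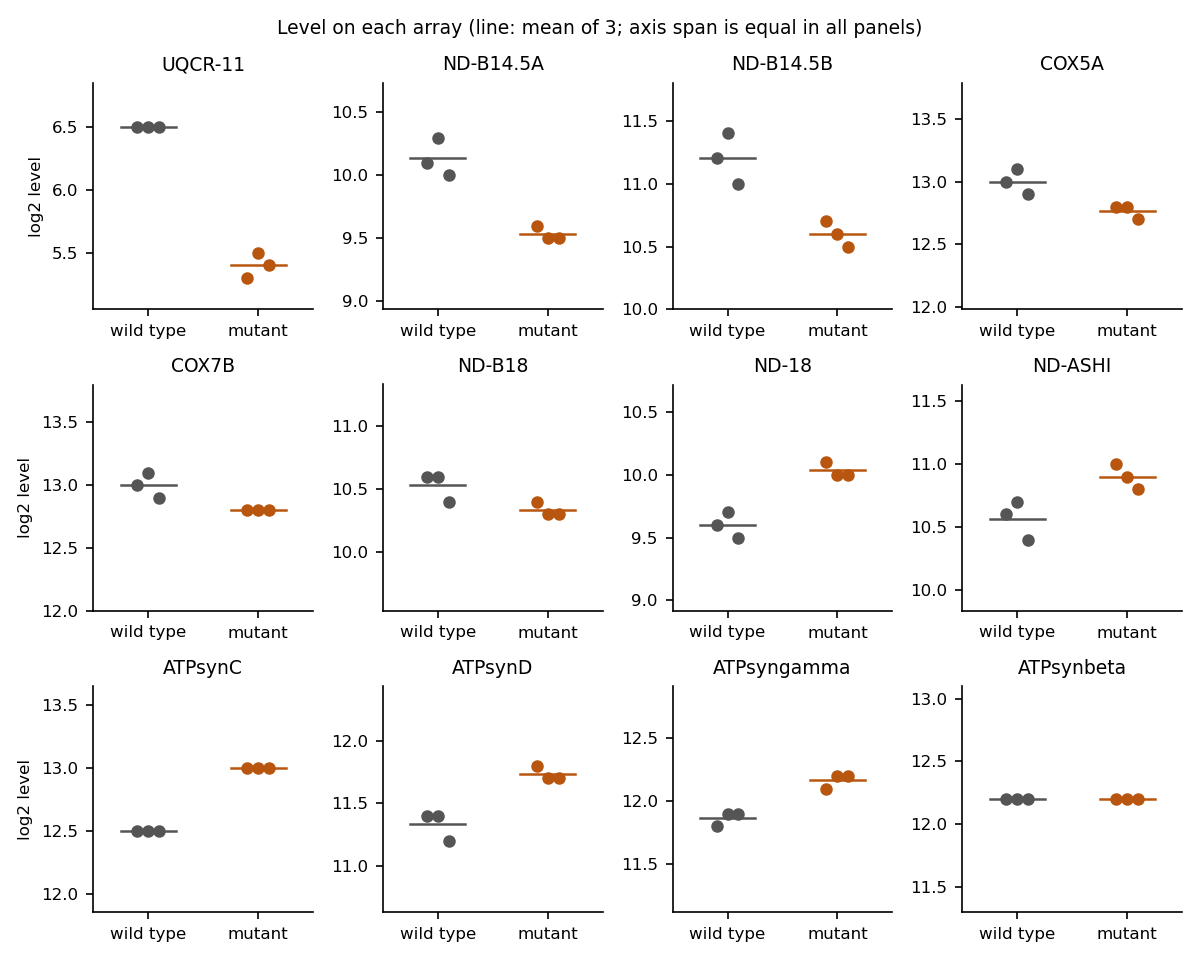
Level of 12 subunit genes on each of the 6 arrays (log2, deposited values; points are arrays, lines are means of 3, and all panels span the same range). UQCR-11, ND-B14.5A, ND-B14.5B, COX5A and COX7B are lower on every mutant array than on any wild-type array. ATPsynC, ATPsynD, ATPsyngamma, ND-18 and ND-ASHI are higher, and ATPsynbeta is level at 12.2. On the spike-in scale the lower genes turn positive.

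The testis-type paralogues gave almost no signal in these embryos. Of the 18 with a probe set, 16 read 2.2, the floor, on all 6 arrays, among them 5 of complex I, both of complex III, and ATPsynbetaL, ATPsynCF6L and ATPsynGL. The exceptions were COX4L and ATPsynepsilonL. COX4L read 2.9, 2.9 and 3.0 in the mutant and 3.1, 3.5 and 3.3 in wild type, apart but below the level needed for testing, a difference of -0.37 where COX4 rose by 0.13. ATPsynepsilonL read 4.5 on each mutant array and 4.5, 4.6 and 4.5 in wild type (-0.03, limma adjusted p = 0.446). Testis markers read likewise: of 14 measured genes of testis and male germline, 11 were at 2.2 on all arrays. The 3 that were tested comprised 1 higher (mia, 33.3%) and 2 lower (twe and bol, 66.7%), beside 24.7% and 40.8% of all tested probe sets. The complex II paralogues were at or beside the floor, with SdhAL at 2.2 on all arrays and SdhBL at 2.2 or 2.3.

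Many of the differences were of the size of the spread between replicates, and that spread had a pattern, noticed after the values were seen. Wild-type replicate 3 alone was the lowest of the wild-type arrays for 33 of the 46 tested members (71.7%), against 31.9% of all tested probe sets, and it was tied for lowest in 12 more. On average wild-type replicate 2 read 0.18 and wild-type replicate 1 read 0.11 above it over the members, where these gaps over all tested probe sets were 0.00 and 0.03. Mutant replicate 1 alone was the highest mutant array for 28 members (60.9%), against 25.9% of all tested probe sets. The range of the wild-type arrays exceeded the difference between genotypes for 22 of the 46 members, and for 2315 of all 8334 tested probe sets. Assembly factors of the chain showed the same order, with wild-type replicate 3 lowest in 14 of 14 genes, while the citric acid cycle did not, with 2 of 9. The spike-in probe sets read 9.41 on wild-type replicate 3, the highest of the 6 arrays, and 8.68 and 8.54 on the other wild-type arrays. The part of any of this in the results was not tested. Without wild-type replicate 3, 9 members rose and 9 fell, and the medians were 0.11 for ATP synthase, -0.02 for complexes I and III and -0.05 for complex IV. Without mutant replicate 1, 5 rose and 4 fell.

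**Figure D3:**
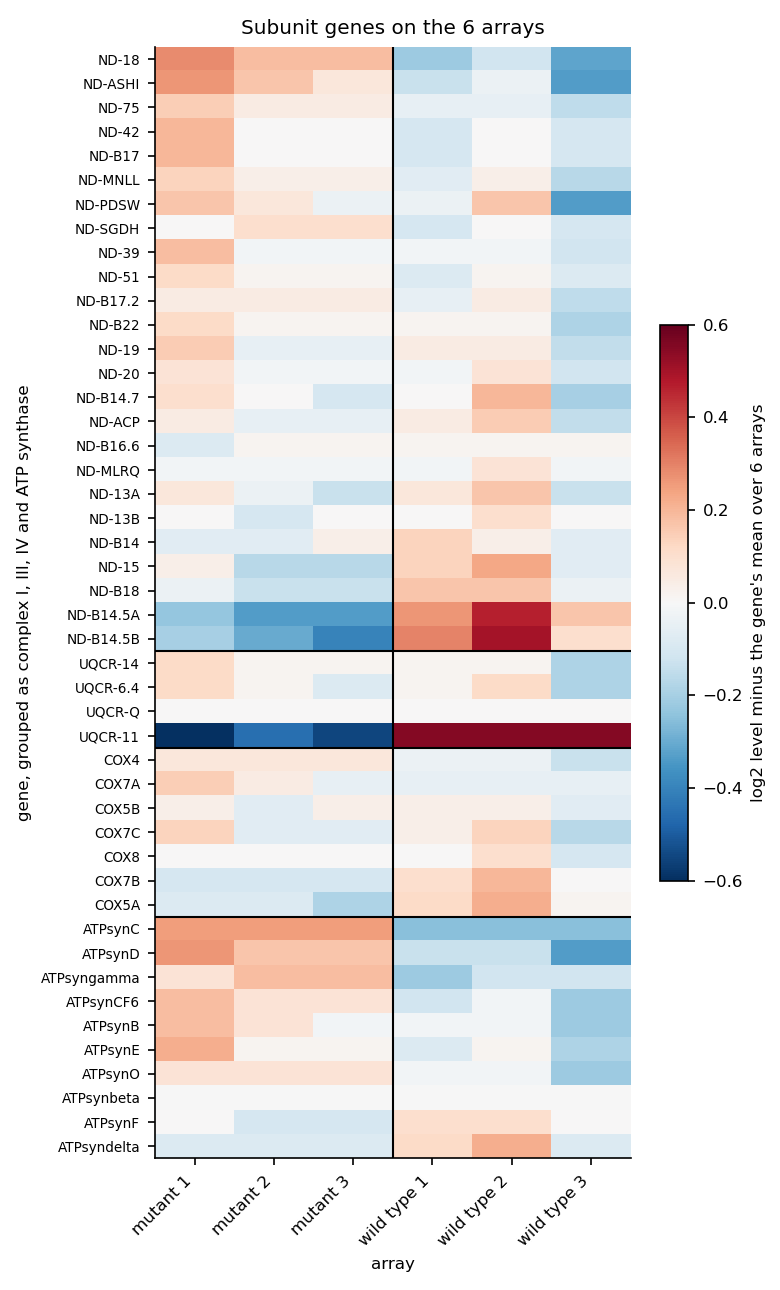
Deviation of each tested subunit gene on each array from its own mean over the 6 arrays (log2; 1 line per gene, 1 column per array, grouped by complex). Wild-type replicate 3 is the lowest of the wild-type columns for 33 of 46 genes. UQCR-11, ND-B14.5A, ND-B14.5B, COX5A and COX7B are lower on every mutant array than on any wild-type array on this scale.

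The 14 members that passed differed in how far the call held. ATPsynC, ATPsynD, ATPsyngamma, ND-18, ND-B14.5A, ND-B14.5B and UQCR-11 kept their call and direction under each alternative other than the spike-in scale and a 2-fold minimum. The spike-in scale turned the 3 falls, and the 2-fold minimum left only UQCR-11 called. ATPsynCF6, ND-ASHI, ND-75, COX4, ND-B18, COX7B and COX5A lost the call under at least 1 of the other alternatives. Centring each array on its median, which adds 0.10 to every difference, gave 20 rises and 3 falls among the members, and moved the share of rises among all called probe sets from 37.6% to 51.5%. That share was 99.3% on the spike-in scale. The 3 falls that remained after centring were among the 6 of the deposited scale.

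The other parts of mitochondrial energy metabolism were read from further gene lists in the same comparison. Complex II, which feeds electrons from succinate and is also an enzyme of the citric acid cycle, had 3 tested genes with a median difference of -0.03. SdhD, its membrane anchor, read 9.8 on each mutant array and 9.6, 9.6 and 9.4 in wild type, a rise of 0.27 (limma adjusted p = 0.0135), and the other 2 did not pass. Of 14 measured assembly factors, which build the complexes without being part of them, 1 rose (7.14%) and 6 fell (42.9%), with a median of -0.28, where 24.7% and 40.8% of all tested probe sets were higher and lower. Differences ran from -0.57 to 0.53. Of the falls, those with the smallest adjusted p are named: Cox10, which makes the haem of complex IV, fell by 0.30 (adjusted p = 0.0032) and Coa8 by 0.40 (adjusted p = 0.00464), while l(3)87Df rose by 0.53 (adjusted p = 0.00971).

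In the citric acid cycle, which supplies the NADH and succinate, 5 of 9 tested genes of the list rose and 3 fell, with differences from -0.70 to 1.17. That is 55.6% and 33.3%, beside 24.7% and 40.8% of all tested probe sets, and it counts muc, a subunit gene of pyruvate dehydrogenase, which stands in the list of pyruvate entry too. Succinyl-CoA synthetase shows this within 1 enzyme, in which alternative beta subunits set whether ATP or GTP is formed. ScsbetaA, the ATP-forming one, read 7.4, 7.4 and 7.5 in the mutant and 6.1, 6.4 and 6.3 in wild type, a rise of 1.17 (limma adjusted p = 0.000202). ScsbetaG, the GTP-forming one, read 9.0, 8.9 and 9.1 against 9.6, 9.6 and 9.4, a difference of -0.53 (adjusted p = 0.00292). Ogdh, the first component of the alpha-ketoglutarate dehydrogenase, rose by 0.80 (adjusted p = 0.000501), and Idh3g, a subunit of the NAD-dependent isocitrate dehydrogenase, had a difference of -0.70 (adjusted p = 0.000616). Of the 4 tested genes for the entry of pyruvate, 2 rose (50.0%) and 1 fell (25.0%), beside 24.7% and 40.8% of all tested probe sets. The rises were muc (0.47) and Mpc1 (0.20), and Pdk, the kinase that turns pyruvate dehydrogenase off, had a difference of -0.30 (adjusted p = 0.0262). It lost the call under 6 of 16 alternatives, among them median centring and leaving out any 1 of the wild-type arrays or mutant replicate 2 (adjusted p up to 0.0959). Of 9 tested inner membrane carriers 4 rose (44.4%) and 3 fell (33.3%), beside 24.7% and 40.8% of all tested probe sets. Smallest in adjusted p were Dic1 among the rises (0.53, adjusted p = 0.000155) and Bmcp among the falls (-0.33, adjusted p = 0.000882). The gene colt had a difference of -0.23 (adjusted p = 0.0032). The ADP/ATP carrier sesB, which exports the ATP made, read 13.8 on each mutant array and 13.7 on each wild-type array, a rise of 0.10 (adjusted p = 0.0109) that was lost with a robust prior (adjusted p = 0.123).

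Genes for coenzyme Q, the lipid that carries electrons from complexes I and II to complex III, moved in both directions, with 2 of 8 tested genes higher (25.0%) and 4 lower (50.0%), beside 24.7% and 40.8% of all tested probe sets. The polyprenyl synthase gene qless, which makes its tail, read 8.4, 8.2 and 8.4 in the mutant and 7.1 on each wild-type array, a rise of 1.23 (limma adjusted p = 5.03e-05). Coq6, a hydroxylase of its ring, read 6.3, 6.0 and 6.1 against 7.2, 7.3 and 7.0, a difference of -1.03 (adjusted p = 0.00087), and Coq9 had a difference of -0.67 (adjusted p = 6.65e-05). Of 9 tested genes that keep and transcribe mitochondrial DNA, which encodes the remaining chain subunits, 0 rose and 7 fell on the deposited scale, with a median of -0.37. The mtDNA-helicase gene read 6.9, 6.6 and 6.7 in the mutant and 7.8 on each wild-type array (-1.07, adjusted p = 0.000224), and mTTF, a transcription termination factor, had a difference of -0.80 (adjusted p = 0.000849). Over all tested probe sets 40.8% were lower.

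Of 6 tested genes listed as regulators of mitochondrial genes or of mitochondria, in the fly or in mammals, 2 rose and 3 fell, shares of 33.3% and 50.0% beside 24.7% and 40.8% of all tested probe sets. Ets97D, the counterpart of GABP alpha, read 8.3, 8.4 and 8.5 in the mutant and 8.9, 9.0 and 9.0 in wild type (-0.57, limma adjusted p = 0.000894). The gene ewg, the counterpart of NRF1, read 9.9, 10.1 and 10.1 against 9.6, 9.7 and 9.8, a rise of 0.33 (adjusted p = 0.0153). It lost the call without a filter on low values and when mutant replicate 2, mutant replicate 3 or wild-type replicate 2 was left out, with an adjusted p of up to 0.0577. The other rise, of foxo, a factor of insulin signalling, was 0.40 (adjusted p = 0.0478) and lost its call under 7 of 16 alternatives (adjusted p up to 0.151). The ATF4 counterpart crc, a factor of the stress response to chain defects, had a difference of -0.60 (adjusted p = 0.00106). The remaining fall was that of ERR, at 6.4, 6.5 and 6.4 against 6.7, 6.9 and 6.7 (-0.33, adjusted p = 0.00926). The contractile muscle and late epidermis genes, with differences from 2.97 to 3.67 and from 1.70 to 4.87, exceeded every difference in the chain, and their part in the differences of the members was not tested.

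**Figure D4:**
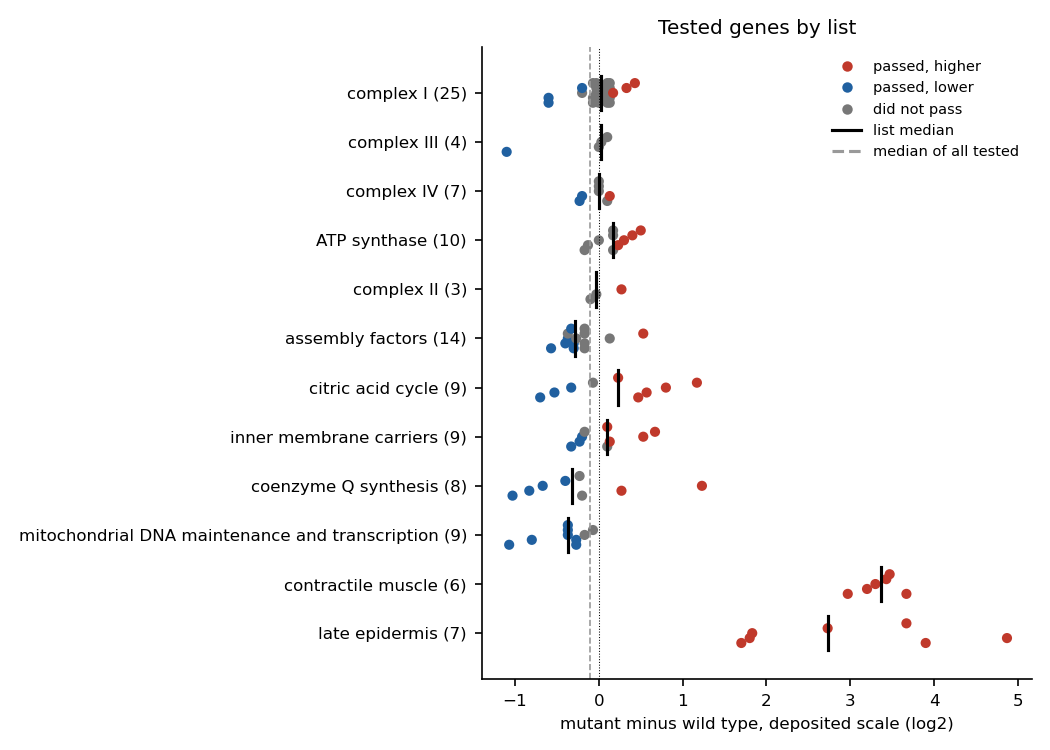
Mutant minus wild-type difference of tested genes in 12 lists (log2, deposited scale; points are genes coloured by the limma call, black bars are list medians, the dashed line is the median of all tested probe sets at -0.10, and the number of tested genes follows each name). The 4 chain and ATP synthase lists sit near 0, while contractile muscle and late epidermis lie between 1.70 and 4.87; on the spike-in scale all points move by 1.39 to the right.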

How the data were processed

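Values are log2 expression levels that the authors made with GCRMA, per the submitters' processing notes; version and options are not given in the sources used here. Deposited values carry 1 decimal and run from 2.2 to 15.1. The fit omitted 183 control probe sets. Mutant minus wild type was fitted genome-wide in R 4.3.3 with lmFit and eBayes of limma 3.58.1, without a block, on the 8334 probe sets with at least 4 on at least 3 of 6 arrays, and p-values were adjusted over all of them (Benjamini-Hochberg, 0.05). The fit was tested on simulated data first.

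The members and lists were chosen with earlier results of these data known. Symbols come from the platform annotation, updated through gene identifiers. Symbols ending in L or in L and a digit were kept apart, except ND-MNLL, where the letters are residues. Of the 48 subunit probe sets, 10 are of the kind that may match transcripts of more than 1 gene (ending _s_at). Probe sets with several symbols did not stand for any gene. Arrays are given per gene for the 3 largest differences in each direction and the 2 highest means of each complex, and up to 4 genes in each direction of other lists could be named. The labels call the samples replicates without naming separate collections, so the p-values rest on a spread among samples that may be purely technical. The number of arrays limits the precision. Alternatives were 2 filters, 3 scales, 2 priors, array weights, a replicate block, each array left out, averaging a gene's probe sets and a 2-fold minimum. Promoter and protein sequences were not used here.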

Additional observations from a re-analysis of the deposited data

How the results depend on the processing

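The 8 rises and 6 falls among the members became 5 and 3 without a filter on low values, 13 and 10 with array weights, 20 and 3 after median centring, 45 and 0 on the spike-in scale, and 0 and 1 with a 2-fold minimum, which left 1353 of 5459 probe sets called overall. Leaving out each array in turn gave 5 to 11 rises and 3 to 9 falls, and 4710 to 5713 probe sets. The highest count of rises came without wild-type replicate 2 and the highest count of falls without wild-type replicate 3. The lowest count of rises, 5, came without mutant replicate 1 or 2, and the lowest count of falls, 3, without wild-type replicate 1 or either of mutant replicates 2 and 3. A filter at 6, quantile normalization, a trend or robust prior and averaging a gene's probe sets kept both counts within 1.5 times. The cause was not tested, other than that the centring and the spike-in scale add a constant to every difference.

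Median differences moved by that constant: centring gave 0.13 for complex I, 0.12 for complex III and 0.10 for complex IV, and the spike-in scale 1.42, 1.40 and 1.39, with 1.55 for ATP synthase. With each array left out the medians ran from -0.02 to 0.08 (complex I), -0.02 to 0.05 (III) and -0.05 to 0.05 (IV), so their sign is not settled, and from 0.11 to 0.21 for ATP synthase. On the spike-in scale 5 of the 6 falls were called as rises, and these signs turned: UQCR-11 0.29, ND-B14.5A and ND-B14.5B 0.79, COX5A 1.15, COX7B, ND-B18 and ND-15 1.19, ATPsyndelta 1.22, ATPsynF 1.25, ND-13A, ND-13B and ND-B14 1.32, and ND-ACP, ND-B16.6 and ND-MLRQ 1.35. Outside the members only some of the listed genes, those with the smallest adjusted p of their list and direction, were taken through the alternatives. Among these the signs that turned were mtDNA-helicase 0.32, Coq6 0.35, mTTF 0.59, Idh3g 0.69, Coq9 0.72, crc 0.79, Ets97D 0.82, ScsbetaG 0.85, sun 0.89, Coa8 0.99, Bmcp 1.05, Cox10 and Pdk 1.09, and colt 1.15. Quantile normalization turned Coq2 to -0.21 (limma adjusted p = 0.0608).

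The titles do not say that same-numbered arrays belong together, so the numbers were not taken as pairs. Same-numbered arrays of the genotypes correlated at 0.166, -0.015 and 0.271 in their deviations, and unlike-numbered arrays at -0.294 to 0.197. With a replicate block 9 members rose, 5 fell and 5234 probe sets were called. Rounding to 1 decimal left 13 of 46 members with no spread in a genotype, which limits what a small difference can show.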

Other observations

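Probe sets shared with another gene were left out of the counts. The set shared by COX6B and CG18809 had a difference of 0.20 (limma adjusted p = 0.0496), the set shared by ATPsynG and beat-Vb one of 0.07, and the set shared by ND-AGGG and CG40472 one of -0.30 (adjusted p = 0.152), all mutant minus wild type in log2 on the deposited scale.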
